A study of Mus musculus with 8 samples.

Results

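The PGC-1 coactivators and the estrogen-related receptors (ERRs) were examined as 7 genes, Ppargc1a, Ppargc1b, Pprc1, Perm1, Esrra, Esrrb and Esrrg, in a list of open chromatin positions from mouse brown adipose tissue (BAT). ATAC-seq uses the Tn5 transposase, which cuts DNA that nucleosomes leave open, and a summit is the position in a called peak where the signal is highest. A summit was taken when it lay inside a gene of the set or at most 50 kb from the transcription start site (TSS) of one of its curated RefSeq mRNAs. Of the 32173 summits in the list, 89 met this rule, which is 0.277%, and they fell at 6 of the 7 genes.

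The list was made from nuclei of BAT. There were 2 mice labelled WT and 2 labelled Dot1L-BKO, all on chow until 12 weeks of age and all held at 4°C for 4 hr before the tissue was taken. Dot1l encodes the histone H3K79 methyltransferase. Dot1L-BKO mice carried floxed Dot1l (from the Dot1ltm1a(KOMP)Wtsi allele after FLP recombination) together with Cre driven by the Ucp1 promoter (B6.FVB-Tg(Ucp1-cre)1Evdr/J), so that Dot1l was lost in Ucp1+ cells and kept in cells of the same tissue that do not express Ucp1, and the WT mice were littermates with floxed Dot1l and no Cre. The study used male mice unless it stated otherwise. There was no ATAC-seq group at room temperature, so cold was shared by all 4 mice. The list names the WT libraries against the Dot1L-BKO libraries and has no value for any one library, and it is not known here which libraries entered peak calling as the control. Depth per library is therefore unknown, replicate error cannot be given, and neither genotypes nor genes were compared by a test. The RNA-seq libraries, 2 for each genotype, were not analysed here.

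Each summit has a score, the −log10 of the q-value that the peak caller gave it, so that a higher score marks a peak that stood farther above whatever the peak caller used as its background. If that background was modelled from the same libraries, the score ranks openness. If the libraries of one genotype served as the control, the score is a contrast between the genotypes, and sites equally open in both could be missing from the list. The files used here do not settle which, so scores, ranks and absent summits are given below as positions in this list, and neither as levels of openness nor as differences between WT and Dot1L-BKO mice. Strong and weak refer to the score alone. Scores repeat, with 53 distinct values among the 89 summits, and many low ones are tied.

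PGC-1α (Ppargc1a), PGC-1β (Ppargc1b) and PRC (Pprc1) are coactivators without a DNA-binding domain. They are brought to genes by transcription factors. In BAT, PGC-1α and PGC-1β are known for driving mitochondrial biogenesis and fatty acid oxidation. PGC-1α is also known for the induction of Ucp1 in cold, where β-adrenergic signalling raises cAMP and activates CREB at the Ppargc1a promoter. ERRα (Esrra), ERRβ (Esrrb) and ERRγ (Esrrg) are orphan nuclear receptors that bind an extended AGGTCA element and rely on PGC-1 proteins in place of a ligand. Perm1 is a PGC-1- and ERR-induced regulator best known in striated muscle.

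A promoter summit, defined as a summit within 1 kb of a TSS, was found at 5 of the 7 genes, against 45.2% of the 21000 genes with a curated mRNA. The 5 genes were all 4 coactivator genes, with Perm1 counted among them, and Esrra. At 4 of them, all but Ppargc1b, the promoter score was at least 10, against 23.5% of all genes. A summit anywhere in the window was found at 6 of the 7 genes, against 72.5% of all genes, and Esrrb had none. The median score of the 89 summits was 4.16, below that of the whole list, while 26 of them (29.2%, 95% Wilson interval 20.8 to 39.4) scored at least 10, against 23.5% of the whole list. Such intervals cover counting error only, and summits of neighbouring positions are not independent.

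The loci also differed in how many summits had their nearest TSS at the gene itself. Of the 89 summits, 50 had their nearest TSS at one of the 7 genes and 39 had it at a neighbour. The 4 coactivator loci held 59 summits, 43 of them nearest to a TSS of the coactivator gene. The 3 ERR loci held 30, of which 7 were nearest to a TSS of the receptor gene. These totals rest on single genes, and both families were split. The gene's own summits were 15 of 15 at Ppargc1a and 23 of 24 at Ppargc1b, but 3 of 11 at Pprc1 and 2 of 9 at Perm1. Among the ERRs they were 3 of 26 at Esrra and 4 of 4 at Esrrg. Summits nearest to the 7 genes had a median score of 4.19 and those nearest to neighbours 3.32. By place, 7 lay in an exon of the gene, 36 in an intron and 46 outside it. In the 201 bases around each summit the GC content ran from 38.8% to 75.1% with a median of 54.7%. At 2 of the 89 the summit base was repeat-masked, and 0 of the 1-kb windows around them matched the mitochondrial genome.

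**Figure D1:**
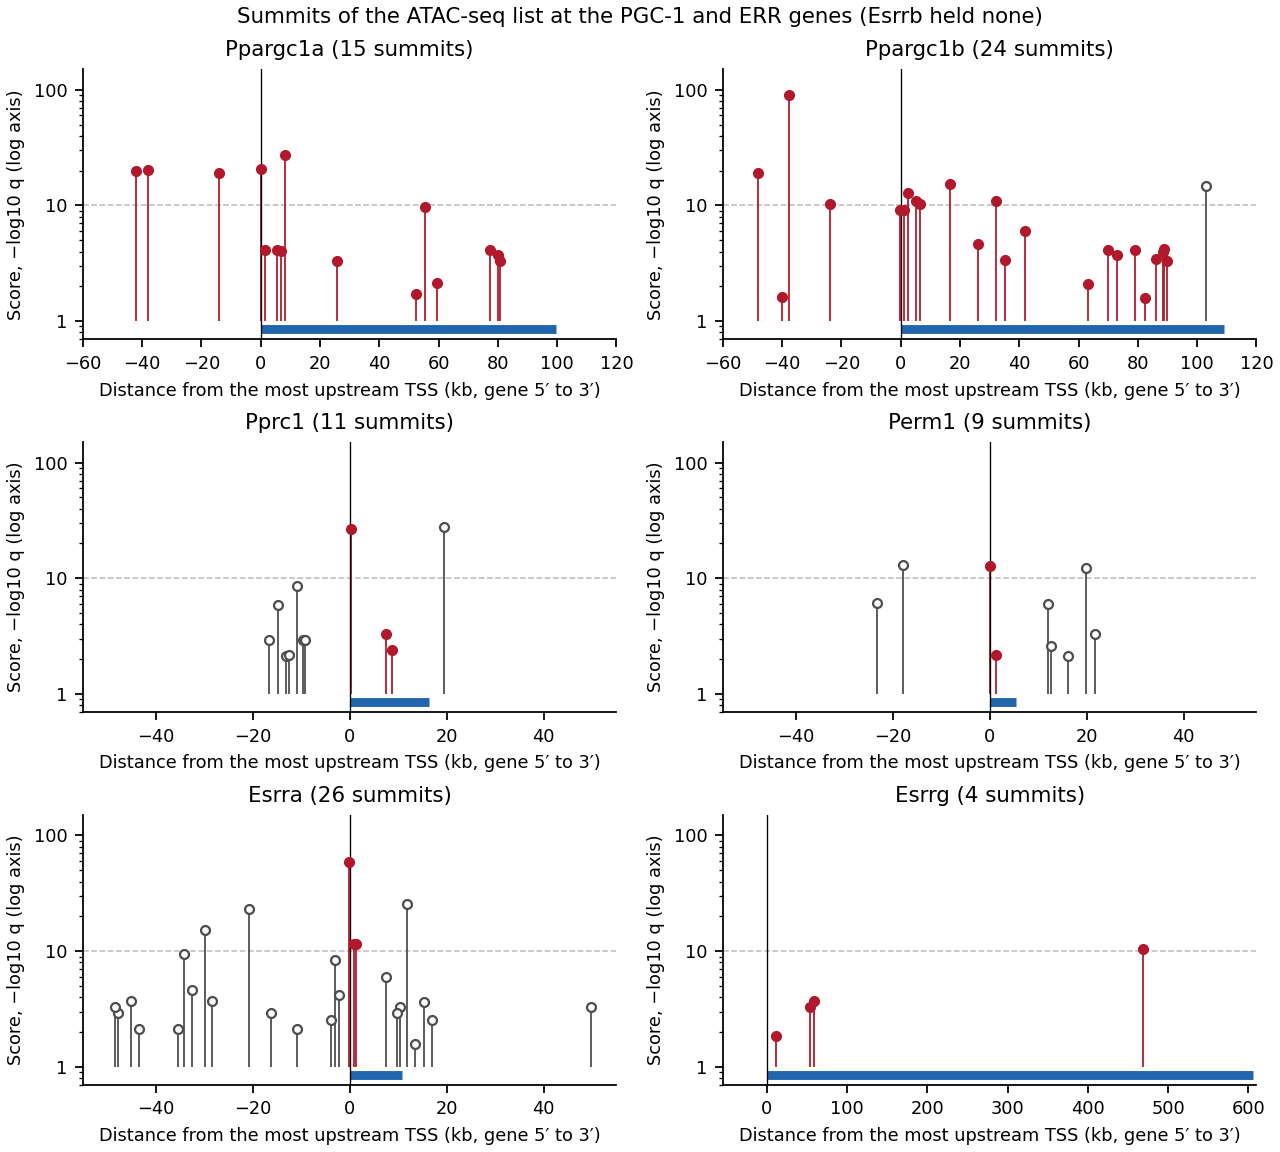
Score of every summit (vertical log axis, −log10 q; the dashed line is at 10) by its distance in kb from the most upstream curated TSS of the gene, read 5′ to 3′, with the gene body as a blue bar. Filled red points have their nearest TSS at the named gene and open grey points at a neighbour, and the 23 grey points at Esrra contrast with 0 at Ppargc1a.

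Ppargc1a (chr5:51454249-51553921, minus strand) had 15 summits over its gene body and 50 kb upstream, and all 15 were nearest to its own TSS. As many summits or more were found at 6.45% of all genes. No other gene had a TSS in the window. Of the 15, 5 scored at least 10. These were the promoter summit 51 bp upstream of the TSS with a score of 20.8, a summit in intron 2, 8.12 kb downstream, with 27.4, and 3 upstream summits at 13.9, 38.0 and 41.9 kb with scores of 19.1, 20.2 and 19.8. The strongest summit of the gene was thus the intronic one, ahead of the promoter. The other 10 lay in the gene body and scored between 1.71 and 9.79, the highest of them 55.6 kb into the gene in intron 2.

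The summit 13.9 kb upstream lay 144 bp before the start of a curated noncoding Ppargc1a transcript, and predicted mRNAs start at the same place. This is the upstream alternative first exon of the gene. Further predicted mRNAs start 562 kb upstream, and summits lay 361 bp before and 306 bp after those starts with scores of 5.07 and 2.53. Summits at these distal starts thus scored lower than those at the start 13.8 kb upstream and at the curated TSS.

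Ppargc1a lies in a stretch with few genes, and 24 summits of the list had its TSS as their nearest, which was reached or passed by 0.229% of all genes. Of these, 9 lay beyond the 50-kb window. The strongest was 513 kb past the TSS with a score of 39.3, and another lay 315 kb upstream with 30.5. The other 7 scored between 1.55 and 6.53. Distance alone ties these to Ppargc1a, and no contact with its promoter was measured.

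The 5 strong Ppargc1a positions are shown because they carry the cAMP-type and C/EBP letters of the locus. All are from GRCm38.p6 (mm10), read 5′ to 3′ on the minus strand, with capitals for every match to 1 of 18 motifs searched on both strands. The promoter is the 250 bases before the curated TSS (chr5:51553922-51554171), and the upstream start is the 250 bases before the noncoding start (chr5:51567726-51567975). The others are the 201 bases centred on the summit in intron 2 (chr5:51545700-51545900) and on the summits 38.0 kb (chr5:51591782-51591982) and 41.9 kb (chr5:51595740-51595940) upstream.
Ppargc1a promoter: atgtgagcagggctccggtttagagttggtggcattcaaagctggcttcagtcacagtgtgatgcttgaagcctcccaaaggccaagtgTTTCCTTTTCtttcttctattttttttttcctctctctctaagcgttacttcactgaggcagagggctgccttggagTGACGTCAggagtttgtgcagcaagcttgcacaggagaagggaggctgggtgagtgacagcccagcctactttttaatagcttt
Ppargc1a upstream start: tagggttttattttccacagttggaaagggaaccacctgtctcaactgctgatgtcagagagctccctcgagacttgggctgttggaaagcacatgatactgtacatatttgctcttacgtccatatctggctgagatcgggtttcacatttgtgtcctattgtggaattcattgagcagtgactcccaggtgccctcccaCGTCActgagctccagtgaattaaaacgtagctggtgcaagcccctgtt
Ppargc1a intron 2: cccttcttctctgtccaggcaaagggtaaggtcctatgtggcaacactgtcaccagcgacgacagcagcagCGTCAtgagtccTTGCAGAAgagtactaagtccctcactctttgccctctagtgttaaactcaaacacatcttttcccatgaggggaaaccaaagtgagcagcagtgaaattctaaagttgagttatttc
Ppargc1a 38.0 kb upstream: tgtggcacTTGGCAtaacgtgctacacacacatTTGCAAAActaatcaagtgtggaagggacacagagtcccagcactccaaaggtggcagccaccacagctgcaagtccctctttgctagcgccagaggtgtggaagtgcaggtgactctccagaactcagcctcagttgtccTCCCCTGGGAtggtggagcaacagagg
Ppargc1a 41.9 kb upstream: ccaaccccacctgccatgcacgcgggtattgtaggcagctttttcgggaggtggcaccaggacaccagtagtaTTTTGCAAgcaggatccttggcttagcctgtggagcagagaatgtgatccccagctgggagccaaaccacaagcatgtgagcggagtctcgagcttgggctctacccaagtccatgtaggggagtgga

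The promoter held the full cAMP response element (CRE, TGACGTCA) 84 to 77 bp before the TSS. It was the only full CRE within 100 bp of any of the 89 summits. Among all promoters of the same 250 bases in RefSeq's table, 1.55% held it. The other capitals in the promoter match the interferon-stimulated response element, found in 2.97% of promoters, and lay outside the 100 bp around the summit. The upstream start and intron 2 each held the 5-base core of the CRE (TGACG, printed as its complement CGTCA), which is common, in 17.7% of promoters and 14.8% of all summits. A C/EBP pattern (TTGCNNAA, 10.9% of all summits) stood in intron 2 and at both upstream summits, and these 3 were the Ppargc1a summits that held it. At 38.0 kb upstream there were in addition an NFI pattern (TTGGCA) and 2 overlapping matches to the EBF pattern (CCCNNGGGA), the motif of the adipocyte factors EBF1 and EBF2. No match to the ERR element (TNAAGGTCA) or to AGGTCA was found within 100 bp of the 15 Ppargc1a summits. A direct-repeat PPAR/RXR pattern (DR1, given by its name) was found at the weak summit 52.4 kb into the gene, which scored 1.71.

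Ppargc1b (chr18:61291445-61400412, minus strand) had 24 summits in its window of 159.0 kb. That number was reached or passed by 1.87% of all genes, and the number per 100 kb of window, 15.1, by 5.17%. Of the 24, 23 were nearest to its own TSS, a number that 0.262% of genes matched or passed. The remaining summit, in exon 13, was nearest to the TSS of Pde6a, a rod photoreceptor phosphodiesterase subunit, and scored 14.6. The strongest was 37.8 kb upstream with a score of 90.5, rank 84 of 32173. The promoter summit, 172 bp before the TSS, scored only 9.21, a score that 55.9% of the genes with a promoter summit matched or passed. At this gene the distal position thus scored far above the promoter.

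A further 8 summits of Ppargc1b scored at least 10. Upstream they lay at 24.0 kb (score 10.4) and 48.3 kb (score 19.1). Intron 1 held 4 of them at 2.49, 5.32, 6.46 and 16.6 kb with scores of 12.8, 10.9, 10.4 and 15.5. Another in intron 2, 32.0 kb from the TSS, scored 10.9, and the exon 13 summit is the last of the 8. The intron 1 summits began at 1.11 kb, where the score was 9.21 and the 201 bases held 13 CpG dinucleotides. Past the intron 2 summit at 41.8 kb, which scored 6.02, no summit nearest to the TSS of the gene reached a score of 5. The promoter window of Ppargc1b was the richest in GC of the 89, with 75.1% and 20 CpG dinucleotides.

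At Ppargc1b, an ERR element lay 95 bp from the summit 24.0 kb upstream, which makes it 1 of 2 summits with that element among the 89. AGGTCA was matched at 8 of the 24 Ppargc1b summits and at 0 of the 15 Ppargc1a summits, against 15.2% of all summits, and the difference between the genes was not tested. The strongest summit held the 5-base CRE core 11 bp from its centre. The AP-1 pattern (TGANTCA) was matched at 5 of the 24 summits of Ppargc1b, against 6.40% of all summits, among them those 48.3 kb upstream and 5.32 kb downstream. A DR1 match lay in intron 2, 63.3 kb from the TSS, at a summit of score 2.09. Sequence is not printed for this locus.

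By the count of summits in 10 bins of 10 kb around the TSS, the genes most like Ppargc1b included Tmem102 and Wfikkn2, each with a summed difference of 3 summits. Ppargc1b had 14 summits in those bins, Tmem102 had 15 and Wfikkn2 had 13. Wfikkn2 had no promoter summit, whereas Tmem102 scored 2.15 there.

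Pprc1 (chr19:46056539-46072909, plus strand) encodes PRC, the family member tied to growth signals. Its promoter summit, 211 bp downstream of the TSS in intron 1, scored 26.9, and 17.3% of genes with a promoter summit scored as high. The gene had 2 further summits of its own, both in exon 5, at 7.44 and 8.73 kb with scores of 3.32 and 2.42. The other 8 of the 11 summits in the window were nearest to neighbours. Ldb1, which encodes a LIM-domain adaptor, was nearest to 7 of them with scores of 2.15 to 8.65, and Nolc1, a nucleolar phosphoprotein gene, to the highest in the window at 27.7.

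Perm1 (chr4:156215927-156221307, plus strand) had a promoter summit 24 bp before its TSS with a score of 12.7, which 43.5% of genes with a promoter summit matched or passed, and a second summit in exon 2 with a score of 2.18. The 7 others in its window of 9 were nearest to Agrn, Plekhn1, Klhl17 and Noc2l. The highest of them, on the Agrn side, scored 13.0, slightly above the Perm1 promoter, and the highest nearest to Noc2l scored 12.2. Perm1 is best known in muscle, and 0 of 5 skeletal muscle marker genes (Myod1, Ckm, Acta1, Myh1 and Ttn) had a promoter summit in this list, against 45.2% of all genes.

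For each of these genes the strongest summit nearest to its own TSS is shown, to set their promoters beside that of Ppargc1a, on the plus strand and without bases of curated exons. Pprc1 is chr19:46056744-46056850 and Perm1 is chr4:156215803-156215926.
Pprc1 intron 1: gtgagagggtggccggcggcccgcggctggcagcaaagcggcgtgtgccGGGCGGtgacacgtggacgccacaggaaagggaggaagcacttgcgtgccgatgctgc
Perm1 promoter: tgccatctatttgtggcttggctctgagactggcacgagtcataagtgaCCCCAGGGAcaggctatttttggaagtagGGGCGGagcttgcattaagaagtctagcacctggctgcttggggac

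The Pprc1 stretch was rich in GC with 12 CpG dinucleotides in 107 bases, and held 1 SP/KLF pattern (GGGCGG, in 32.7% of promoters). The Perm1 stretch had 53.2% GC and 2 CpG dinucleotides in 124 bases. It held an EBF pattern 75 to 67 bp before the TSS, found in 5.60% of promoters, and an SP/KLF pattern 46 to 41 bp before it. Neither stretch held a full CRE, an ERR element or AGGTCA.

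Esrra (chr19:6910977-6921808, minus strand) had the strongest promoter summit of the 7 genes. It lay 225 bp before the TSS with a score of 59.5, rank 329 of 32173, and 3.18% of genes with a promoter summit scored as high. A second summit in the 1-kb window, 813 bp downstream in intron 1, scored 11.5, as did another at 1.38 kb. These 3 were the only summits nearest to its TSS, and all 3 scored at least 10.

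The Esrra window held 26 summits, the most of the 7 genes and a number that 1.45% of all genes reached or passed, but 23 of them were nearest to neighbours. The TSSs of 7 other genes lay in the window. Plcb3 (phospholipase C β3) was nearest to 5 summits with scores of 2.15 to 3.75. Prdx5, which encodes a mitochondrial peroxiredoxin, was nearest to 4 with a highest score of 25.7, and Bad, a pro-apoptotic BCL2 family gene, to 4 with a highest of 15.4. Trmt112 and Catsperz were nearest to 3 each, with highest scores of 3.62 and 8.45. Within the body of Esrra, 3 of its 5 summits were nearer to the TSS of Prdx5 than to its own. The high count at Esrra is thus a count for a gene-dense stretch, unlike that at Ppargc1a and Ppargc1b.

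The Esrra summit is shown because it was the strongest promoter of the set (chr19:6921933-6922133, minus strand).
Esrra promoter: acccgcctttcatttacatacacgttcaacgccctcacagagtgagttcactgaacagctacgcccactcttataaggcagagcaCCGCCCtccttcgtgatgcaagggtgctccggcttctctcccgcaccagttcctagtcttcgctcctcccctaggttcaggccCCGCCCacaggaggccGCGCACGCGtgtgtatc

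The 201 bases had 59.2% GC and 14 CpG dinucleotides. The SP/KLF pattern was matched at 2 places, both on the opposite strand, and an NRF1 pattern (GCGCANGCG, the motif of nuclear respiratory factor 1) lay 141 to 133 bp before the TSS. The NRF1 pattern was found in 5.16% of promoters and in 8.35% of promoter summits, against 0.495% of summits farther from a TSS. It stood at 1 other of the 89 summits, that of Nolc1 beside Pprc1. No AGGTCA was found in these 201 bases. Both intron 1 summits of Esrra held a C/EBP pattern, 48 and 26 bp from their centres.

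Esrrb (chr12:86361117-86521628, plus strand), known for its part in pluripotent stem cells, had 0 summits in a window of 210.5 kb around 2 curated TSSs. Of all genes, 27.5% had none. The nearest summit lay 119 kb upstream with a score of 13.8 and was nearest to the TSS of Gpatch2l. Such an absence means that no peak there passed both the q-value and the fold enrichment cutoffs of the list, and with unknown depth it is not a measure of closed chromatin.

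Esrrg (chr1:187609006-188214885, plus strand), the ERR known in heart, oxidative muscle and brown fat, had 4 summits in a window of 655.9 kb, or 0.61 per 100 kb. The genome as a whole had 1.18 summits per 100 kb and the median gene 1.67. No promoter summit was found at any of its 4 curated TSSs, and the nearest was 10.2 kb away. All 4 summits were intronic. Those in intron 1 scored 1.84, 3.32 and 3.75, and the one in intron 4, 79.9 kb from the nearest TSS, scored 10.5. A predicted mRNA of Esrrg starts 1.15 kb from the summit of score 3.32. Of 135 genes with a window at least as long as that of Esrrg, 121 had 4 summits or fewer, so that the low count is common among genes of its length.

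The intron 4 position of Esrrg is shown as the strongest of the locus and as the place where AGGTCA stood at the summit itself, 2 bp from its centre (chr1:188077638-188077838, plus strand).
Esrrg intron 4: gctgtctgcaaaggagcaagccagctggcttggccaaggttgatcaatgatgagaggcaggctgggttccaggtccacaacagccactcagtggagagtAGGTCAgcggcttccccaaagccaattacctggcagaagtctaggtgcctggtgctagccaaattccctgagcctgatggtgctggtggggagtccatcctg

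**Figure D2:**
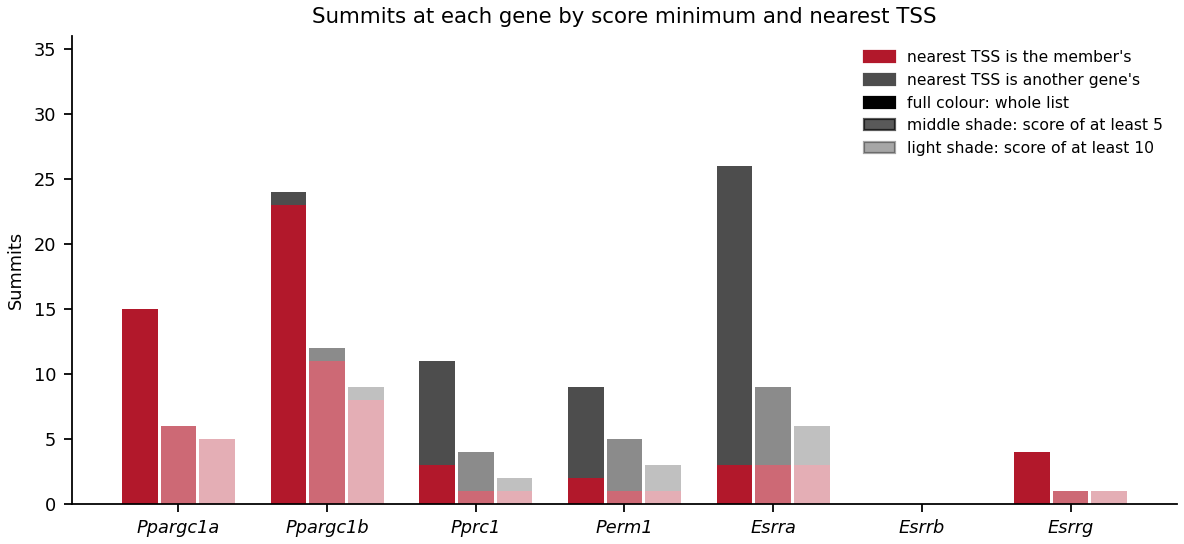
Number of summits at each gene (vertical axis) in the whole list and at scores of at least 5 and at least 10, from full to light shade, split by whether the nearest TSS was that of the named gene (red) or of a neighbour (grey). Ppargc1b kept 9 and Esrra 6 summits at a score of at least 10, of which 8 and 3 were their own.

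The order of the 7 genes depended on what was counted. By all summits it was Esrra (26), Ppargc1b (24), Ppargc1a (15), Pprc1 (11), Perm1 (9), Esrrg (4) and Esrrb (0). By summits nearest to the gene's own TSS within the window it was Ppargc1b (23), Ppargc1a (15), Esrrg (4), Pprc1 and Esrra (3 each), Perm1 (2) and Esrrb (0). By promoter score it was Esrra (59.5), Pprc1 (26.9), Ppargc1a (20.8), Perm1 (12.7) and Ppargc1b (9.21). With no replicate error, neighbours in these orders cannot be told apart or together.

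**Figure D3:**
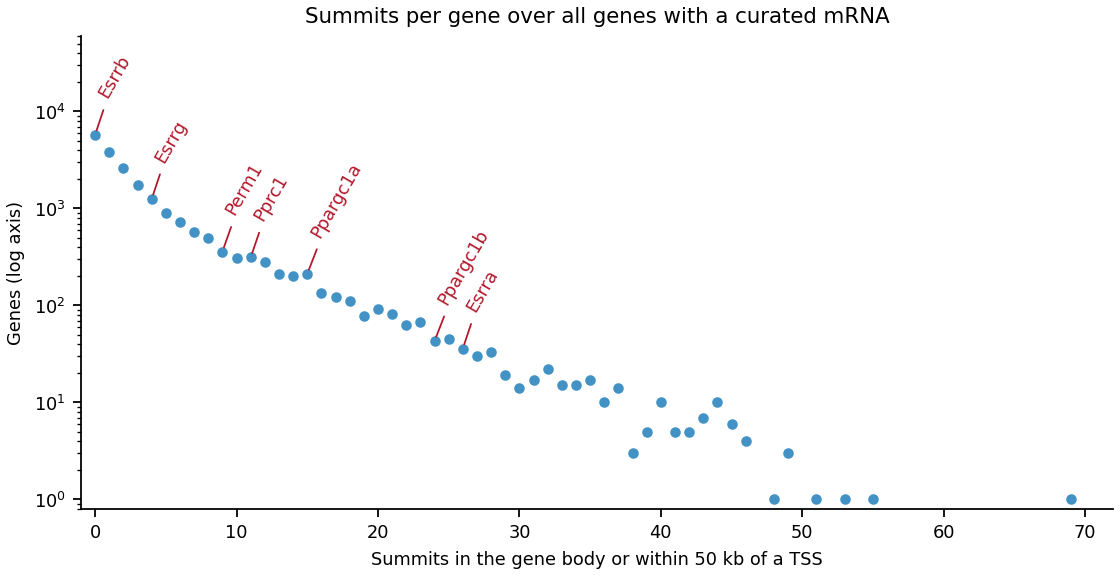
Number of genes (vertical log axis) with a given number of summits (horizontal axis, counted inside the gene and up to 50 kb from its TSSs), over the 21000 genes with a curated mRNA, with the 7 genes named. Esrra and Ppargc1b stand in the upper tail with 26 and 24 summits, and Esrrb is among the 27.5% of genes with none.

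Away from promoters, most of the strong summits nearest to the 7 genes were at Ppargc1a and Ppargc1b. Of 44 such summits farther than 1 kb from a TSS of the gene, 14 scored at least 10 (31.8%, 95% Wilson interval 20.0 to 46.6), against 14.4% of all summits away from promoters. The medians were the same, at 4.16. Of the 14, 12 were at Ppargc1a and Ppargc1b, and Pprc1, Perm1 and Esrrb had 0. The interval treats the 44 summits as independent, which summits of the same locus are not. The genes were also chosen with earlier results of these data known, so the share describes these loci and tests nothing. The 6 summits in promoters of the 7 genes had a median of 16.7, against 8.65 for all 10375 promoter summits.

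The positions at the edges of the 50-kb windows show what the rule took in. At Esrra, the outermost summit inside lay 222 bp from the downstream edge, nearest to Ccdc88b, with a score of 3.32, and the first one outside upstream lay 2.71 kb beyond the edge, near Ppp1r14b, with 7.58. At Ppargc1b the outermost upstream summit inside was the one of score 19.1, 1.73 kb from the edge, and the next outside lay 23.0 kb beyond it, near Arhgef37, with 47.3. At Pprc1 the first outside upstream, near Hps6, was 1.46 kb beyond the edge with 1.71, and the first outside downstream was nearest to Elovl3, the cold-induced fatty acid elongase, with 9.79. At Ppargc1a the next summits were 108 kb beyond the upstream edge with 2.92 and 3.89 kb past the end of the gene with 3.32.

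Genes that act with PGC-1 were grouped by role. Of 13 regulators of PGC-1, 9 had a promoter summit (69.2%), against 45.2% of all genes. The highest score was that of Crtc2 (32.5), the CREB coactivator, and 6 of the 13 scored at least 10, against 23.5% of all genes. Creb1 itself scored 21.6, Mef2a 31.7, Mapk14 (p38α), which acts on PGC-1α and its gene, 30.9, and Mef2d 20.6. Atf2 (8.99), Sirt1 (7.42) and Foxo1 (5.87) scored below the median of 10.7 of all genes with a promoter summit. No promoter summit was found at Crtc3, Mef2c and the AMPK catalytic subunit genes Prkaa1 and Prkaa2.

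Of 15 coregulators that act with PGC-1 or against it, 11 had a promoter summit (73.3%, against 45.2% of all genes), and 3 of the 15 scored at least 10, against 23.5% of all genes. Prmt1, an arginine methyltransferase, was highest at 60.5. The corepressor gene Nrip1 scored 16.7 and the coactivator gene Ncoa2 19.4. The acetyltransferase genes Crebbp, Kat2a and Kat2b and the corepressor gene Nr0b2 had none. The median score of the 11 was 8.65, under the 10.7 of all genes with a promoter summit.

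Of 14 nuclear receptors and factors that PGC-1 binds, 12 had a promoter summit (85.7%, against 45.2% of all genes), with Rxrb highest at 37.6. A score of at least 10 was found at 8 of the 14, against 23.5% of all genes. Ppara, a receptor for fatty acids that drives their oxidation, scored 22.4, Pparg 19.1 and Nr4a1 25.9. The lowest scores were those of Prdm16 (8.65), Irf4 (7.53), Rxra (7.05) and Ppard (4.16). The median of the 12 was 13.6, against 10.7 for all genes with a promoter summit. The thyroid hormone receptor gene Thra and Hnf4a had none, while Thrb scored 13.1.

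Among the roles, target genes had the highest median promoter score and the highest single score. Of 28 nuclear and mitochondrial targets, 24 had a promoter summit (85.7%, against 45.2% of all genes) and 20 scored at least 10, against 23.5% of all genes. The median of the 24 was 22.4, against 10.7 for all genes with a promoter summit. Cycs (cytochrome c) was highest at 155, followed by Acadm, the medium-chain acyl-CoA dehydrogenase, at 121 and Gabpa, a subunit of nuclear respiratory factor 2, at 98.3. The Gabpa summit lay within 1 kb of its TSS but had its nearest TSS at another gene, as did those of Atp5a1 and Ndufs1. Ucp1, the uncoupling protein of BAT, scored 33.7, and Pdk4 64.5. The mitochondrial transcription factor gene Tfam scored 7.05. No promoter summit was found at Nrf1, Gabpb2, Fndc5 and Ckmt2, which encodes the sarcomeric mitochondrial creatine kinase. In this set the promoters of several target genes thus scored above every PGC-1 and ERR promoter but that of Esrra, and 4 targets (Cycs, Acadm, Pdk4 and, with a summit nearer to another gene, Gabpa) above that as well. The roles were listed with results of these data known, so the shares describe these genes and test nothing.

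**Figure D4:**
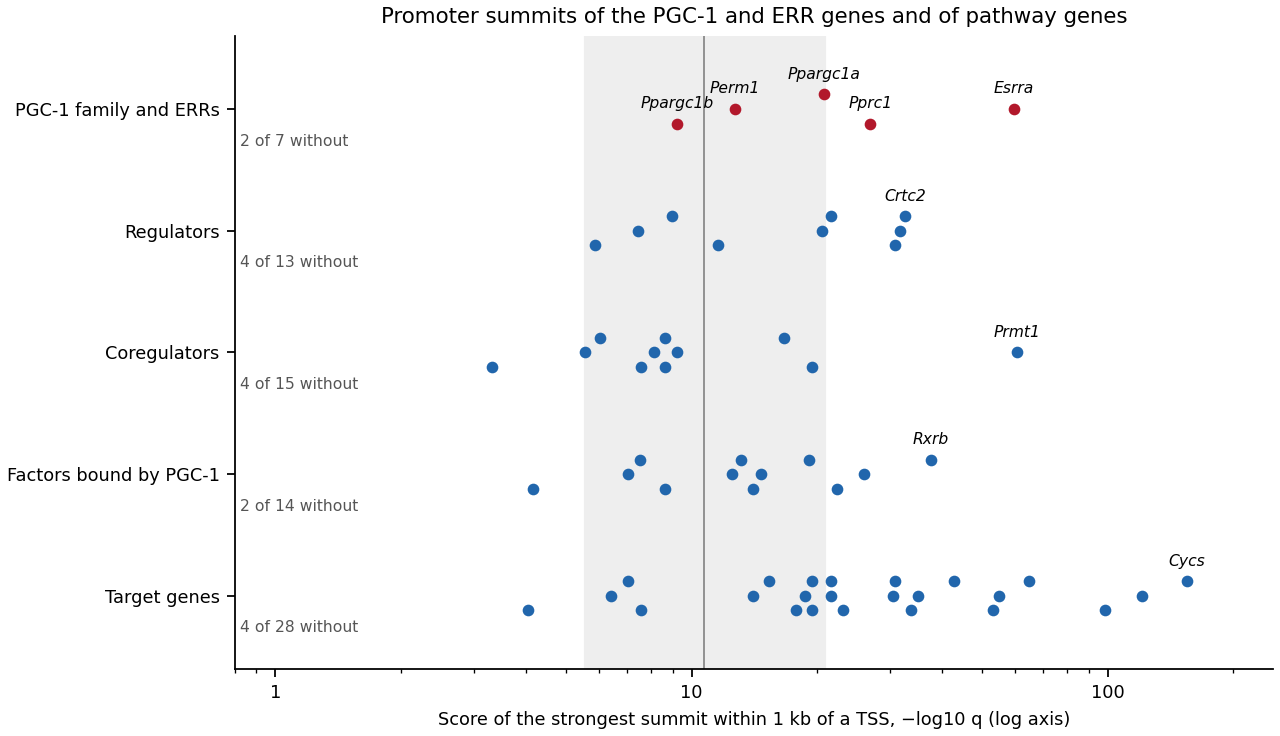
Score of the strongest summit within 1 kb of a TSS (horizontal log axis, −log10 q), 1 point per gene, for the PGC-1 and ERR genes (red) and 4 roles of pathway genes (blue); grey text counts genes without a promoter summit. The grey band runs from 5.55 to 20.9, the quartiles of all genes with a promoter summit, around the median line at 10.7, and the target genes reach 155 at Cycs.

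The PPAR and RXR genes, the receptors most often paired with PGC-1 in adipocytes, served for comparison. All 6 had a promoter summit, with scores from 4.16 (Ppard) to 37.6 (Rxrb), against 1 of the 3 ERR genes and 45.2% of all genes. Their windows held 83 summits, between 1 at Rxrg and 29 at Ppara. Ppara had 34 summits nearest to its TSS, more than the 24 of Ppargc1a and the 23 of Ppargc1b, and Rxra had 21. Pparg had only 3 in its window.

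Around the 89 summits, 59 held at least 1 of the 18 motifs within 100 bp. The same count was not made over all summits of the list, so it cannot be called high or low. The share with AGGTCA was 16.9% (15 of 89), against 15.2% of all summits. The ERR element was found at 2 (2.25%, against 1.30%), the CRE at 1 (1.12%, against 1.03%), the CRE core at 11 (12.4%, against 14.8%) and the C/EBP pattern at 9 (10.1%, against 10.9%). AP-1 was matched at 8 (8.99%, against 6.40%). SP/KLF was matched at 12 (13.5%, against 20.6%), and in the whole list its share was 45.0% among promoter summits and 9.07% among the others. EBF was matched at 5 (5.62%, against 9.93%), all 5 at summits nearest to Ppargc1a, Ppargc1b or Perm1. The second ERR element lay 12 bp from a summit in the body of Bad, 28.3 kb upstream of Esrra, whose summit base is repeat-masked and which scored 3.75. NFI was matched at 9 (10.1%, against 10.9%), DR1 at 2 (2.25%, against 0.889%) and FOXO (TGTTTAC) at 2 (2.25%, against 1.56%). ETS (CCGGAAG) was matched at 2 (2.25%, against 5.38%), NRF1 at 2 (2.25%, against 3.03%) and CTCF (CCACNAGGG) at 2 (2.25%, against 1.61%). YY1 (GCCATNTTG) and MEF2, the latter given by name, were matched at 1 each (1.12%, against 2.28% and 0.734%). The DR4 and interferon-stimulated elements, given by name, were matched at 0 of the 89, against 0.532% and 1.35% of all summits. Patterns overlap, since AGGTCA is part of the ERR element and TGACG of the CRE, and a match is letters only, not a bound site.

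**Figure D5:**
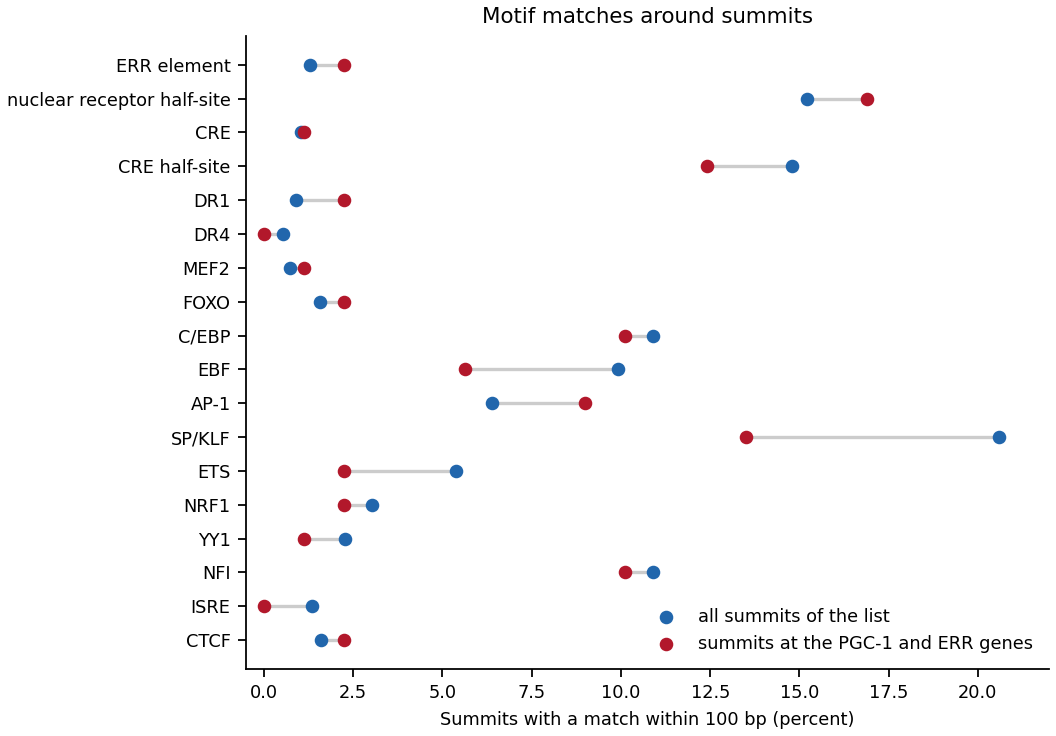
Percent of summits with a match within 100 bp (horizontal axis) for each of 18 motifs, for the 89 summits at the PGC-1 and ERR genes (red) and all 32173 summits (blue). SP/KLF shows the widest gap, 13.5% against 20.6% (45.0% of promoter summits and 9.07% of others in the list), and 1 summit of the 89 is 1.12%, so that most red points rest on few summits.

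As a check of the tissue, a promoter summit was found at 7 of 8 brown adipocyte marker genes (all but Adrb3) and at 5 of 5 general adipocyte genes, against 45.2% of all genes. The brown adipocyte promoters had a median score of 9.78, below the 10.7 of all genes with a promoter summit, while the general adipocyte promoters had a median of 23.1. A score of at least 10 was found at 3 of the 8 brown and 4 of the 5 general adipocyte genes, against 23.5% of all genes. A promoter summit was found at 1 of 4 endothelial, 1 of 4 leukocyte and 1 of 3 mural or progenitor genes, with scores of 4.16 or less. None was found at the 5 muscle and 4 neuron genes. Since nuclei came from whole tissue and the control of the peak calling is not known here, fewer cells of a type, less open chromatin per cell and sites equally open in both genotypes cannot be told apart where a summit is missing.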

How the data were processed

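ATAC-seq was made from BAT nuclei of 4 mice, 2 WT and 2 Dot1L-BKO, each processed separately with a Nextera kit. Reads were mapped by the authors to mm10 (BWA, within Partek Flow). They called peaks in ATAC mode using MACS2, version 2.1.1 per the labels, keeping those with q up to 0.05 and enrichment of at least 2.0-fold. Each summit of the deposited list comes with its −log10 q-value from the authors' run. How mitochondrial and multi-mapped reads were treated, and whether reads were shifted for the transposase, is not given in the sources used here. The effect of these steps on the summits was not tested.

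Summits were placed against curated RefSeq mRNAs of GRCm38.p6 (the same build as mm10) on chromosomes 1 to 19, X and Y, inside a gene or up to 50 kb from its TSSs, with the nearest TSS recorded. Exact motif patterns were searched on both strands within 100 bp. Similarity to mitochondrial DNA was checked in 1-kb windows (blastn 2.17.0, e-value 1e-10). Python 3.11.15, numpy 2.4.6, pandas 2.3.3, pysam 0.24.0 and matplotlib 3.10.9 were used, and the counting was tested on simulated positions and motifs.

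The 7 genes, the pathway and marker lists and the comparison groups were chosen with earlier results of these data known. All 7 genes were named. Pathway genes were named where they had the highest promoter score of their role or no promoter summit, and neighbours where they were nearest to the strongest summit or to 3 or more. Genes named at window edges, other neighbours (Noc2l, Plekhn1, Klhl17, Pde6a, Gpatch2l), other pathway genes with values (such as Creb1, Ucp1 and Acadm) and the nuclear receptors of the closing section were picked after their values were seen. Some genes that these rules pick are not reported here. Alternatives changed the score minimum, merging, window, transcripts and assignment. The list has no values per library, so no interval other than 95% Wilson intervals of shares and no p-value was computed.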

Additional observations from a re-analysis of the deposited data

How the results depend on the processing

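The number of summits at the 7 loci depended most on the score minimum, the window and the assignment. It was 89 as reported, 37 with a score of at least 5, 26 with a score of at least 10, 52 with a window of 10 kb and 59 when only summits with their nearest TSS at one of the 7 genes were taken at any distance. Merging summits within 500 bp (87), adding predicted mRNAs (95) and a window of 100 kb (123) kept it within 1.5 times. The median score was 12.2 with a score of at least 5, 15.4 with at least 10 and 4.61 with the 100-kb window, and 4.16 otherwise. The number of genes with a promoter summit was 4 or 5 and that of genes with a summit in the window 6 under every alternative tried. Of the 89 summits, those with a motif match fell from 59 to 33 with 50 bp in place of 100 bp on each side. Neither width has a matching count over all summits of the list. Of 49 counts at single genes under alternatives, 21 moved by more than 1.5 times. With a 10-kb window Esrra had 9 summits, Pprc1 5 and Perm1 2, and with predicted mRNAs Ppargc1a had 21. No paired analysis was possible because values of single libraries are not in the files used here, and for the same reason leaving out a replicate could not be run. Depth is unknown, so that a gene without a summit, such as Esrrb, sets no limit on its openness.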

Other observations

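Nuclear receptor genes other than the ERRs gave a wide range of values. Of 44 such genes, 23 had a promoter summit (52.3%), against 45.2% of all genes. The highest score was at Nr4a3 (66.7), an immediate-early orphan receptor gene, followed by the circadian repressor gene Nr1d2 (65.8) and Nr2c2 (44.6). Nr4a1 had the most summits of the group in its window, 41, while 18 summits of the list had its TSS as their nearest. Of the 44, 12 had no summit in the window, against 27.5% of all genes. The glucocorticoid receptor gene Nr3c1 scored 15.9 and the mineralocorticoid receptor gene Nr3c2 23.1.

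Rara had the most promoter summits of these nuclear receptor genes, with 8 within 1 kb of its several TSSs and a highest score of 11.5 among them. A gene with several TSSs has more bases in its promoter windows, and how many of all genes reach this number is not given here.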
